A study of Mus musculus with 16 samples.

Results

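The genes described here are *Drd2*, *Adora2a*, *Ppp1r1b*, *Rgs9*, *Pde10a*, *Rasd2*, *Penk* and *Tac1*, 8 of the 37583 genes listed in the count files. They were picked by name as genes known for high levels in the striatum, and they were picked because such genes vary between the cortex libraries of this series. The spread between cortex libraries and the A391T difference in cortex therefore belong to the choice, and both are given below as descriptions without a test. The A391T difference in cerebellum did not enter the choice and was tested. The comparison of cerebellum with cortex was tested too, but it uses the cortex libraries by which the genes were chosen.

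Most neurons of the striatum are medium spiny neurons, which release GABA and receive dopamine from the midbrain and glutamate from the cortex. Those of the indirect pathway carry the dopamine D2 receptor, an adenosine receptor and enkephalin, and those of the direct pathway carry the dopamine D1 receptor and substance P. In both kinds the receptors act through G proteins on cyclic AMP, and the proteins of *Ppp1r1b*, *Rgs9*, *Pde10a* and *Rasd2* act on that signal. The striatum lies beneath the cortex, and several of these genes are also expressed at lower levels by cortical and other neurons.

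RNA was sequenced from the cortex and the cerebellum of 4 wild-type mice (cortex libraries CTX447, CTX448, CTX479 and CTX480) and of 4 mice with the *Slc39a8* A391T (A393T) mutation (CTX445, CTX446, CTX461 and CTX462), as 1 library per region and mouse, the cerebellum library of the mouse of CTX447 being CBLM447 and so on. All mice were of the C57BL/6J strain, and the wild-type mice were males of 12 weeks. A391T changes 1 amino acid of a metal ion transporter, which read counts per gene cannot check, and the sources used here do not say whether 1 or both copies carry it. The tissue came from the hemisphere opposite to the one used for glycan measurements, frontal cortex, hippocampus, striatum and cerebellum having been separated by blunt dissection before freezing, and no striatum library was analysed here.

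Each library held 20813432 to 30497206 reads counted on genes. The summed level of 8 marker genes of cortical excitatory neurons was 2202 to 2732 CPM (reads scaled to the same total in every library) in the cortex libraries and 682 to 840 CPM in the cerebellum libraries, and that of 6 cerebellar marker genes was 21.0 to 24.3 CPM in cortex and 4128 to 4573 CPM in cerebellum, so that each library matched its tissue label. The files do not settle which animal each library came from. For 4 mice (those of CTX447, CTX448, CTX461 and CTX462), in both regions, the deposited RPKM table holds under one mouse the values that the count files give to another, which makes 8 of its 16 columns and exchanges wild-type with A391T libraries. CTX461, an A391T library below, is the one of that name among the count files, and the RPKM table places its values under CTX447, a wild-type library. CBLM445, an A391T cerebellum library, stood apart from the other 3 of its group, since a chi-square of its counts against theirs came to 57.7 to 69 per degree of freedom, where all other pairs within a group lay between 2.93 and 31.9.

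The 8 genes lie on 7 chromosomes of the NCBIM37 (mm9) assembly. *Drd2* (ENSMUSG00000032259) spans chr9:49148732-49216282 on the plus strand, *Adora2a* (ENSMUSG00000020178) chr10:74779688-74797533 on the plus strand, *Ppp1r1b* (ENSMUSG00000061718) chr11:98209718-98219110 on the plus strand and *Rgs9* (ENSMUSG00000020599) chr11:109086669-109159443 on the minus strand. *Pde10a* (ENSMUSG00000023868) spans chr17:8718237-9179513 on the plus strand, *Rasd2* (ENSMUSG00000034472) chr8:77737843-77748012 on the plus strand, *Penk* (ENSMUSG00000045573) chr4:4060678-4065966 on the minus strand and *Tac1* (ENSMUSG00000061762) chr6:7505071-7512973 on the plus strand. Reads had been counted without regard to strand. Of the exon bases of *Ppp1r1b*, 15.71% are shared with *1700003D09Rik* on the other strand, and of those of *Penk*, 14.26% with *A830012C17Rik* on the other strand, so that reads on those bases cannot be told apart, while the other 6 genes share no exon base with a neighbour.

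The 250 bases before the start site are shown for *Rgs9*, *Tac1* and *Drd2*, which had the largest differences between cortex and cerebellum among the 5 genes with an entry in the RefSeq promoter set of the GRCm38.p6 assembly. The set holds no entry for *Penk*, *Ppp1r1b* or *Adora2a*. Sequences run 5′ to 3′ on the strand of the gene, from chr11:109298182-109298431 (minus strand) for *Rgs9*, chr6:7554811-7555060 (plus strand) for *Tac1* and chr9:49340153-49340402 (plus strand) for *Drd2*. Capitals mark GC boxes (GGGCGG or, on the other strand, CCGCCC) and the core of the cyclic AMP response element (TGACG or CGTCA), and no match to one overlaps a match to the other.
Rgs9: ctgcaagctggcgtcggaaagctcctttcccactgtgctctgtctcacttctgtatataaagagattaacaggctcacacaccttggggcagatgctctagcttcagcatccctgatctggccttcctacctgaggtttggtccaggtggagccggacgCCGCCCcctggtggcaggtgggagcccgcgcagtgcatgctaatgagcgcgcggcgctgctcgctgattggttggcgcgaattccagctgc
Tac1: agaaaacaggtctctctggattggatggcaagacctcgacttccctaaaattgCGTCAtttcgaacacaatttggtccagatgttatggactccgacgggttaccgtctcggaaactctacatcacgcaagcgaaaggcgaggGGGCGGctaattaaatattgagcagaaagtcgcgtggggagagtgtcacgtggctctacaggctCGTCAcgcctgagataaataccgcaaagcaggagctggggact
Drd2: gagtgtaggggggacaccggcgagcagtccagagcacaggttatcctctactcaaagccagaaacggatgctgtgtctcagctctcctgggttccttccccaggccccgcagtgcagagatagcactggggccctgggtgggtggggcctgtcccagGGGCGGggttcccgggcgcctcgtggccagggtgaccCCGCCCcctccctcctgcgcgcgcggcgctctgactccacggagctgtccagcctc
The window of *Drd2* held 2 GC boxes, and those of *Rgs9* and *Tac1* held 1 each, a motif present in 32.74% of the 32851 promoter windows of the same length. The window of *Tac1* held 2 cores of the cyclic AMP response element, present in 17.77% of all windows, and the other 2 windows held none. The full element TGACGTCA, present in 1.55% of all windows, was in none of the 3. The letters TATAAA, searched on both strands and present in 12.37% of all windows, were found in that of *Rgs9* alone. The 3 promoters thus share the GC box and no other searched motif, and a match describes letters, not a site in use.

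The dopamine D2 receptor gene *Drd2* had 39.7, 38.3, 44.5 and 30.4 CPM in the wild-type cortex libraries CTX447, CTX448, CTX479 and CTX480, with totals scaled by the TMM method. In the A391T cortex libraries CTX445, CTX446, CTX461 and CTX462 it had 48.2, 30.3, 5.95 and 50.1 CPM. CTX461 stood 5.09 times below the next lowest, while the other 3 A391T libraries spanned about the range of the wild-type libraries. In wild-type cerebellum, in the same order of mice (CBLM447, CBLM448, CBLM479 and CBLM480), the level was 1.63, 1.35, 6.91 and 1.03 CPM. In A391T cerebellum (CBLM445, CBLM446, CBLM461 and CBLM462) it was 0.805, 1.16, 6.73 and 1.81 CPM. CBLM479 and CBLM461 were the 2 highest, and both lay above CTX461.

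The adenosine receptor gene *Adora2a*, whose product opposes the D2 receptor in the same neurons, had 51.9, 42.9, 51.1 and 38.3 CPM in the 4 wild-type cortex libraries. In A391T cortex it had 60.3, 42.6, 8.44 and 61.7 CPM, again lowest in CTX461, at 22.1% of the next lowest library. Unlike *Drd2*, it varied little in cerebellum, at 3.61, 2.86, 2.99 and 3.54 CPM in wild-type mice. The A391T cerebellum libraries had 3.32, 2.55, 3.42 and 3.32 CPM, so that all 8 cortex libraries lay above all 8 cerebellum libraries.

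*Ppp1r1b* encodes DARPP-32, a protein phosphatase inhibitor that dopamine signalling switches on through cyclic AMP. Its cortex level was 325, 289, 316 and 249 CPM in the 4 wild-type libraries, given here and below in the order used for *Drd2*. In the A391T libraries it was 359, 278, 127 and 382 CPM, with CTX461 at 51.1% of the next lowest library. The gene was also abundant in cerebellum, where the level was 187, 212, 172 and 195 CPM in wild-type mice and 247, 202, 174 and 182 CPM in A391T mice. CTX461 lay below all 8 cerebellum libraries.

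*Rgs9* encodes a GTPase accelerator that shortens D2 receptor signals. It had 75.7, 77.6, 82.2 and 59.1 CPM in the wild-type cortex libraries. In A391T cortex it had 90.2, 70.7, 22.9 and 94.8 CPM, with CTX461 at 38.7% of the next lowest. In cerebellum it was low, with 4.00, 3.52, 3.57 and 2.83 CPM in wild-type mice and 2.97, 3.09, 5.42 and 2.82 CPM in A391T mice. The mouse of CTX461 and CBLM461 thus had the lowest cortex level and the highest cerebellum level of this gene.

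*Pde10a*, a phosphodiesterase that degrades cyclic nucleotides in medium spiny neurons, had the widest spread of the 8 genes among the other cortex libraries. It had 192, 218, 273 and 136 CPM in wild-type mice and 230, 185, 70.8 and 228 CPM in A391T mice. In cerebellum it had 73.3, 95.1, 131 and 97.8 CPM in wild-type mice and 63.9, 80.6, 70.0 and 99.8 CPM in A391T mice. CTX461 lay below 6 of the 8 cerebellum libraries, and the other 7 cortex libraries lay above all of them.

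*Rasd2* encodes Rhes, a small GTPase of the striatum. It had 202, 209, 222 and 178 CPM in wild-type cortex and 213, 186, 102 and 215 CPM in A391T cortex. In cerebellum it had 31.0, 34.5, 42.5 and 29.4 CPM in wild-type mice and 30.6, 31.1, 42.6 and 33.1 CPM in A391T mice. It varied least of the 8 genes in cortex, and its highest cerebellum levels were in CBLM461 and CBLM479.

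*Penk*, the precursor of the enkephalin peptides of the indirect pathway, had 225, 181, 234 and 191 CPM in wild-type cortex. In A391T cortex it had 231, 154, 55.7 and 259 CPM, with CTX461 at 36.2% of the next lowest library. Its cerebellum level overlapped with that of cortex, at 151, 172, 153 and 148 CPM in wild-type mice and 188, 148, 139 and 146 CPM in A391T mice. Every cerebellum library lay above CTX461. CBLM445 also lay above CTX446 and CTX448, and CBLM448 above CTX446.

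*Tac1*, the precursor of substance P and neurokinin A of the direct pathway, had 38.2, 26.5, 36.1 and 43.2 CPM in wild-type cortex and 40.6, 27.8, 15.7 and 41.4 CPM in A391T cortex. CTX461 was again lowest, at 59.1% of the next lowest library. In wild-type cerebellum the level was 2.22, 1.20, 3.19 and 0.875 CPM. In A391T cerebellum it was 0.420, 0.502, 6.32 and 0.631 CPM, which are 12 to 155 reads, and CBLM461 was the highest of the 8.

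**Figure D1:**
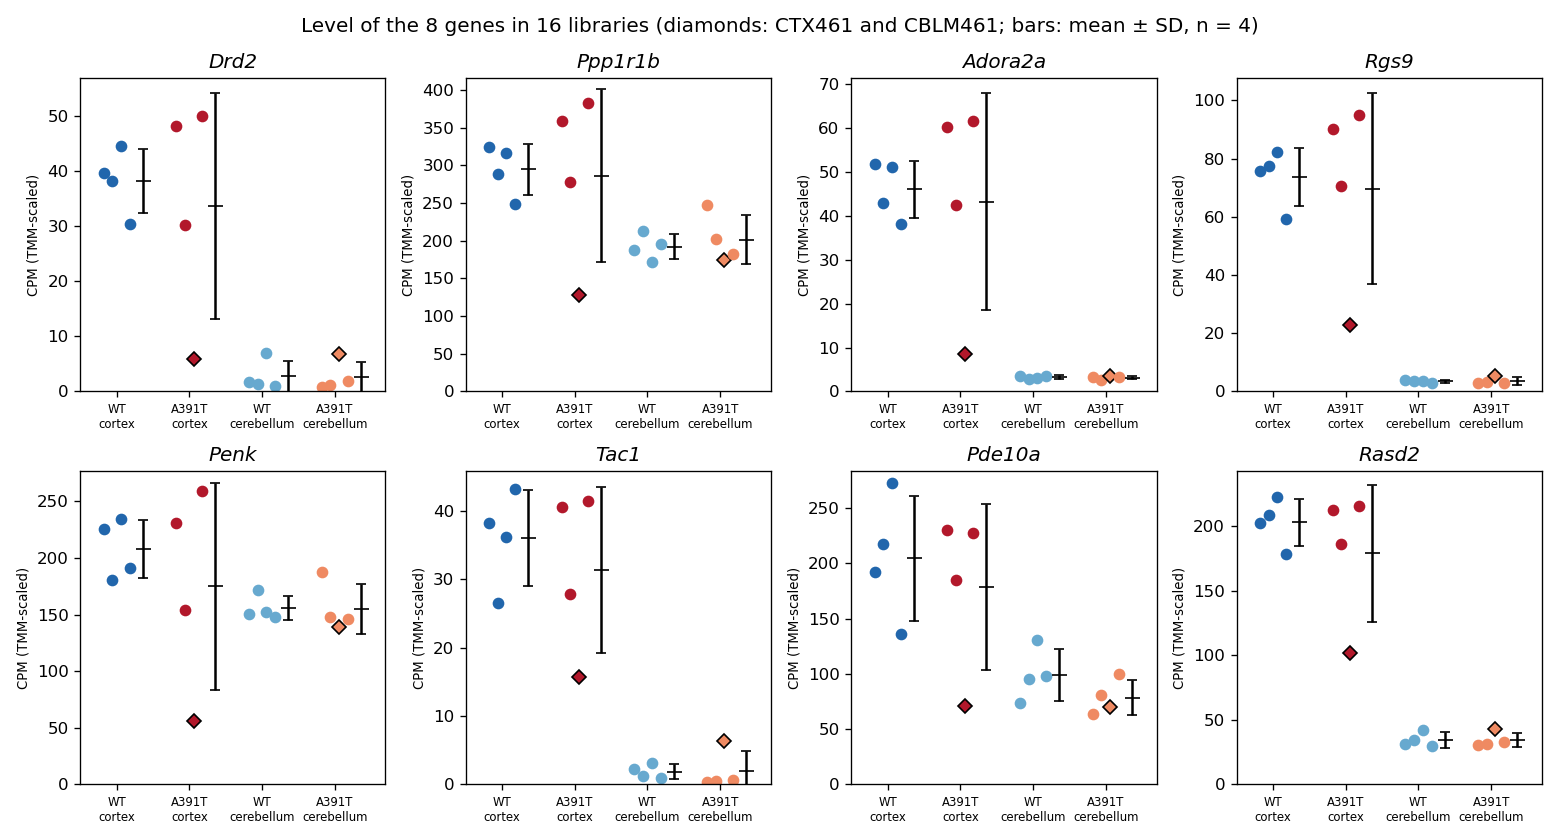
Level of each of the 8 genes in CPM (vertical axis, linear) in the 4 libraries of each group (horizontal axis); points are libraries, diamonds are CTX461 and CBLM461, and bars are mean ± SD, shown down to 0. CTX461 is the lowest of the 8 cortex libraries for all 8 genes, and the cerebellum libraries are lower than most cortex libraries for *Drd2*, *Adora2a*, *Rgs9*, *Tac1* and *Rasd2*.

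Compared per gene length, in TPM (reads per unit of gene length, with 1 total for all libraries), the 2 most abundant of the 8 genes in wild-type cortex were *Penk* with 362 ± 48.5 TPM (SD, n = 4) and *Ppp1r1b* with 356 ± 44.2 TPM, which did not differ beyond their spread. *Rasd2* followed with 225 ± 24.4 TPM and *Tac1* with 123 ± 22.8 TPM, each apart from its neighbours in this order by more than the SD. *Adora2a* with 64.1 ± 9.71 TPM, *Pde10a* with 55.9 ± 16.6 TPM and *Drd2* with 53.1 ± 9.00 TPM came next. *Pde10a* lay within its SD of both others, while *Adora2a* and *Drd2* were apart by more than the SD of either. *Rgs9* was lowest with 38.3 ± 5.83 TPM. In wild-type cerebellum *Penk* with 300 ± 17.1 TPM and *Ppp1r1b* with 256 ± 20.1 TPM were again the most abundant. *Rasd2* with 42.3 ± 7.29 TPM and *Pde10a* with 30.0 ± 7.41 TPM came next. *Tac1* with 7.10 ± 4.02 TPM, *Adora2a* with 5.01 ± 0.616 TPM and *Drd2* with 4.21 ± 4.35 TPM did not differ beyond their spread, and *Rgs9* was at 2.00 ± 0.259 TPM. The peptide precursor of the indirect pathway and DARPP-32 were thus abundant in both regions, while both receptors were at low levels in cerebellum.

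Across the cortex libraries the 8 genes shared their lowest library. CTX461 was the lowest of 8 for 8 of 8 genes, against 12.2% of the 14289 genes with a mean of at least 1 CPM in cortex, and the count of the 8 genes follows from their choice. The highest cortex library exceeded the lowest 8.42-fold for *Drd2*, 7.31-fold for *Adora2a*, 4.65-fold for *Penk*, 4.15-fold for *Rgs9*, 3.85-fold for *Pde10a*, 3.00-fold for *Ppp1r1b*, 2.76-fold for *Tac1* and 2.18-fold for *Rasd2*. This ratio reached 2 for 8 of 8 genes and for 6.68% of all 14289 genes, and its median was 4.00 over the 8 genes and 1.32 over all genes. *Drd2*, *Adora2a* and *Penk*, the 3 genes of the indirect pathway, had the 3 largest ratios, and *Tac1*, the gene of the direct pathway, the second smallest.

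Without CTX461 the highest cortex library exceeded the lowest 1.65-fold for *Drd2*, 1.61-fold for *Adora2a*, 1.69-fold for *Penk*, 1.61-fold for *Rgs9*, 2.00-fold for *Pde10a*, 1.53-fold for *Ppp1r1b*, 1.63-fold for *Tac1* and 1.25-fold for *Rasd2*. The median over the 8 genes fell to 1.62, and that over all genes was 1.30. The summed level of the 8 genes was 409 CPM in CTX461, and 926 CPM in wild-type CTX480 to 1333 CPM in A391T CTX462 in the other 7 libraries. The highest library was that of A391T CTX462 for 5 genes, that of wild-type CTX479 for *Pde10a* and *Rasd2* and that of wild-type CTX480 for *Tac1*. In bulk RNA, fewer cells of a type and less RNA per cell cannot be told apart, and neither can a smaller share of one tissue in the sample.

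As a description of how closely each gene followed the other 7 over the 8 cortex libraries, Pearson's r of the log2 CPM with the mean of the other 7 genes was 0.998 for *Drd2*, 0.994 for *Adora2a*, 0.989 for *Rgs9*, 0.987 for *Rasd2*, 0.986 for *Ppp1r1b*, 0.985 for *Penk*, 0.932 for *Pde10a* and 0.856 for *Tac1*. These values rest largely on CTX461. Over the other 7 libraries r was 0.980 for *Drd2* and 0.857 to 0.946 for *Adora2a*, *Ppp1r1b*, *Rgs9*, *Penk* and *Rasd2*, and it was 0.662 for *Pde10a* and 0.295 for *Tac1*. The points share library, depth and scaling.

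**Figure D2:**
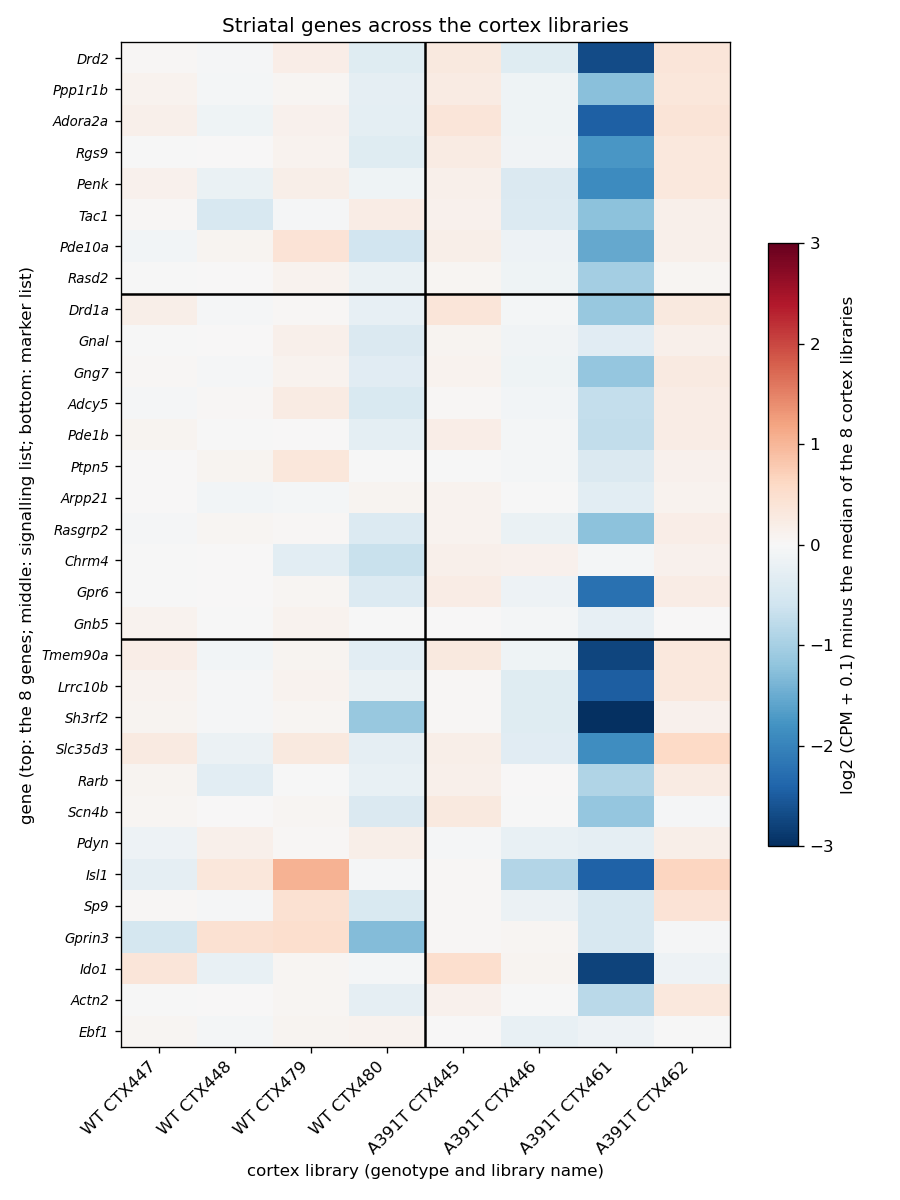
Level of the 8 genes (top), of 11 of the 12 genes of the medium spiny neuron signalling list (middle) and of the list of other striatal markers with at least 1 CPM (bottom) in the 8 cortex libraries, as log2 (CPM + 0.1) minus the median of the 8 libraries; rows are genes, columns are libraries, and blue is below the median. The column of A391T CTX461 is blue for all 8 genes and for most genes of both lists, with *Arpp21*, *Gnal*, *Chrm4*, *Gnb5*, *Pdyn* and *Ebf1* close to the median.

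The other genes of the pathway were taken from lists written with earlier results of these data known. Of 12 genes of medium spiny neuron signalling, 10 were lowest in CTX461. Among the 4 most abundant, *Arpp21*, a cyclic AMP-regulated phosphoprotein, had 431 CPM there and 512 to 583 CPM in the other 7 libraries, and *Adcy5*, the striatal adenylyl cyclase, had 239 CPM there and 287 to 462.1 CPM in the others. *Pde1b*, a calmodulin-dependent phosphodiesterase, had 211 CPM against 289 to 418 CPM, and *Ptpn5*, the striatal-enriched phosphatase STEP, had 214 CPM against 277 to 365 CPM. The 2 genes of this list that were lowest elsewhere, *Gnal* and *Chrm4*, were lowest in wild-type CTX480 and are named for that reason, after their values were seen. Of 13 other striatal markers with at least 1 CPM, 11 were lowest in CTX461, and the exceptions, also named after their values were seen, were *Gprin3* and *Ebf1*. The summed level of the 12 signalling genes was 1.69 times higher in the highest cortex library than in the lowest, and that of the 14 markers 2.63 times.

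Marker genes of the direct and indirect pathways were read in the same way. Of 6 genes of the indirect pathway with at least 1 CPM, 5 were lowest in CTX461, and the summed level of the list was 84.2 CPM there and 254 to 405 CPM in the other 7 cortex libraries. Of 6 genes of the direct pathway, 5 were lowest in CTX461, and their summed level was 126 CPM there and 163 to 208 CPM in the others. *Drd1a*, the dopamine D1 receptor gene, had 15.3 CPM there and 28.4 to 43.8 CPM in the others. *Pdyn*, the dynorphin precursor, differed less, with a ratio of highest to lowest library of 1.37. Among receptors of the peptides, the substance P receptor gene *Tacr1* had 1.69 CPM in CTX461 and 3.71 to 6.78 CPM in the others, while the δ opioid receptor gene *Oprd1* was lowest in wild-type CTX480 with 12.9 CPM and had 23.9 CPM in CTX461. Members of both lists differed widely, and whether the pathways differ was not tested. Of the direct pathway *Isl1* had 0.211 CPM in CTX461 and at least 0.820 CPM in the others, and *Slc35d3* had 1.60 CPM and at least 4.84 CPM. Of the indirect pathway *Sp9* had 7.13 CPM and at least 7.28 CPM, and *Gprin3* was lowest in CTX480. These 4 genes are named after their values were seen. The pathway lists include *Drd2*, *Adora2a*, *Penk* and *Tac1* themselves and are not separate evidence.

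Markers of other cells and tissues were compared in the same way. The 2 detected genes of striatal cholinergic interneurons were both lowest in CTX461. *Chat*, choline acetyltransferase, had 0.211 CPM there and 2.21 to 4.52 CPM in the other cortex libraries, and *Slc5a7*, the choline transporter, had 1.27 CPM against 3.16 to 6.75 CPM, while *Lhx8* was at 0 in all 8. Of 8 genes of cortical excitatory neurons, 1 was lowest in CTX461, and their summed level of 2589 CPM there lay inside the range of the other 7 libraries, 2202 to 2732 CPM. Of 7 genes of cortical interneurons, 2 were lowest in CTX461, with a summed level of 863 CPM against 916 to 1095 CPM. These were *Gad1* (312 CPM against 354 to 395 CPM) and *Sst* (208 CPM against 212 to 318 CPM). *Gad2*, *Pvalb*, *Vip*, *Npy* and *Lhx6* were lowest in other libraries. The 6 oligodendrocyte genes summed to 5857 CPM in CTX461, the highest of the 8, against 5147 to 5692 CPM, and none of them was lowest there.

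For markers of neighbouring tissues CTX461 lay within or close to the range of the other libraries. The hippocampus list summed to 34.6 CPM in CTX461 and 30.1 to 35.4 CPM in the other cortex libraries, the olfactory bulb list to 7.55 CPM against 5.97 to 11.7 CPM, and the thalamus list to 47.9 CPM, the lowest, against 52.1 to 74.5 CPM. The choroid plexus list summed to 8.86 CPM against 6.94 to 25.4 CPM, the blood list to 65.5 CPM against 58.4 to 95.9 CPM, and the cerebellum list to 24.0 CPM against 21.0 to 24.3 CPM. A list of midbrain dopamine neurons, added after the data were seen, summed to 25.7 CPM in CTX461 and 27.7 to 46.2 CPM in the others. CTX461 was thus the lowest of the 8 cortex libraries for the 5 lists of striatal neurons. Its sums were also lowest, by a smaller margin, for the cortical interneuron, thalamus and midbrain lists, most genes of which were lowest elsewhere. The part of the amount of striatal tissue in the cortex samples was not tested.

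**Figure D3:**
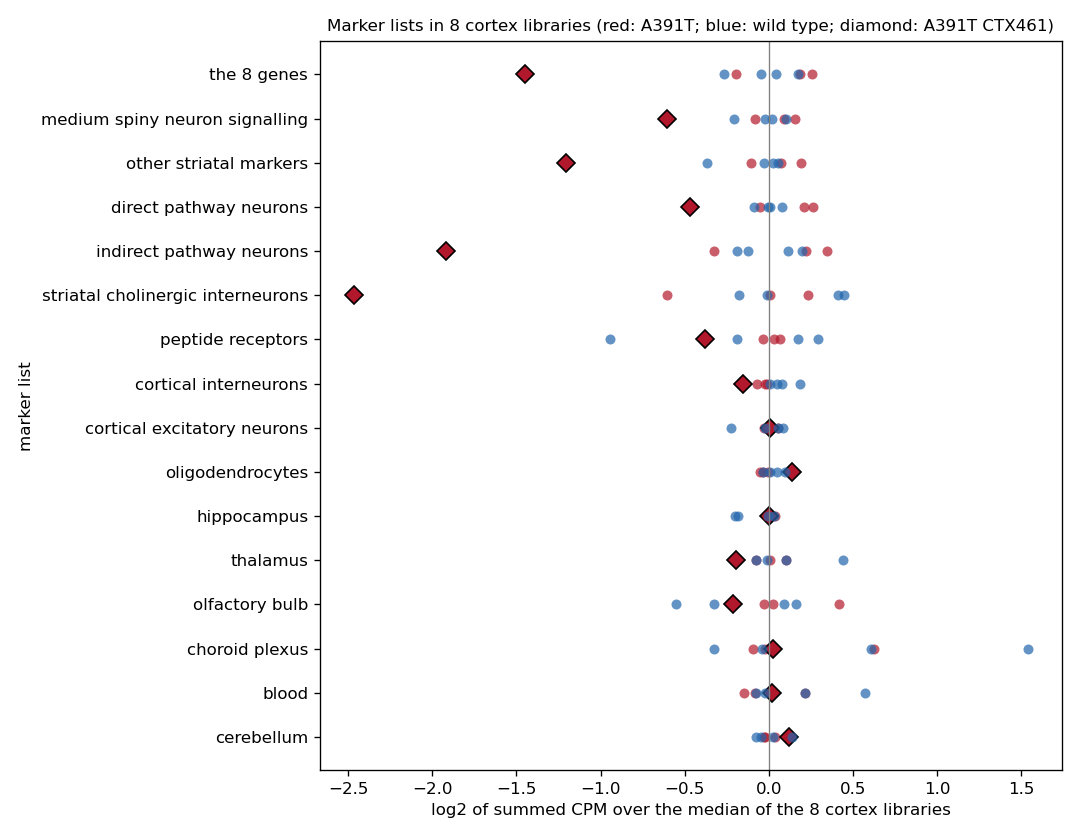
Summed CPM of each marker list in the 8 cortex libraries, as log2 of the ratio to the median library (horizontal axis), 1 line per list; red is A391T, blue is wild type and the diamond is A391T CTX461. CTX461 lies below the other 7 libraries for the 8 genes and the striatal lists, and within or near their range for the other lists.

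Among the 10 genes with the pattern most like the mean of the 8, by Pearson's r of log2 CPM over the 8 cortex libraries, were *Tmem90a* (r = 0.992), *Gpr6*, *Lrrc10b*, *Pcp4l1*, *Rxrg*, *Serpina9*, *Gng7*, *Slc35d3* and *Ptpn7* (r = 0.981). *Tmem90a* had 8.48 CPM in CTX461 and 46.6 to 71.8 CPM in the other cortex libraries, and, like *Penk* and *Ppp1r1b*, it had more in every cerebellum library, 30.1 to 49.5 CPM, than in CTX461. *Gng7*, a G protein subunit that works with *Adora2a* and the D1 receptor, had 113 CPM in CTX461 and 197 to 302 CPM in the others. Over the 7 libraries without CTX461, r was 0.937 for *Tmem90a*, 0.773 for *Ptpn7* and between these for the other 7 genes named.

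The cortex libraries by which the genes were chosen also enter the comparison of the regions, so that its counts and p-values are not independent of the choice. The cerebellum libraries did not enter the choice. All 8 genes passed the filter on low counts, and 6 of 8 were lower in cerebellum in wild-type mice, past both criteria of the study (2-fold and an adjusted p-value of 0.05). Of all 16040 genes tested, 14.2% were lower in cerebellum by the same criteria, and the median log2 fold change was -3.19 over the 8 genes and 0.02 over all genes. The largest differences were those of *Rgs9*, at -4.41 on the log2 scale (standard error 0.13, edgeR adjusted p = 2.5e-10 by quasi-likelihood and Benjamini-Hochberg), and *Tac1*, with -4.27 (0.29, edgeR adjusted p = 1.7e-07). The receptors followed, *Adora2a* with a log2 fold change of -3.83 (0.13, edgeR adjusted p = 6.5e-10) and *Drd2* with -3.81 (0.44, edgeR adjusted p = 1.4e-05). *Rasd2* was lower by a log2 fold change of -2.57 (0.11, edgeR adjusted p = 5.1e-09) and *Pde10a* by -1.05 (0.21, edgeR adjusted p = 8.9e-04). *Ppp1r1b* with -0.62 (0.09, edgeR adjusted p = 1.3e-04) and *Penk* with -0.42 (0.09, edgeR adjusted p = 0.0017) passed the adjusted p-value and not the 2-fold criterion. By the adjusted p-value alone 8 of 8 genes were lower in cerebellum, against 33.1% of all genes.

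The call for *Pde10a* stood close to the 2-fold limit. Its log2 fold change in wild-type mice was -0.92 with library totals in place of TMM factors, -0.88 without CTX479, -0.92 without CBLM447 and -0.84 with mice named as in the RPKM table, and in each case 5 of 8 genes were called. With the table's names, and thus with CTX461 and CBLM461 counted as wild type, *Ppp1r1b* had a log2 fold change of -0.58 (edgeR adjusted p = 0.058) and *Penk* of -0.35 (edgeR adjusted p = 0.38). Without CBLM479, that of *Drd2* was -4.86.

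In A391T mice 6 of 8 genes were lower in cerebellum by the same criteria, against 14.9% of 16005 genes, with a median log2 fold change of -3.06 over the 8 genes and 0.03 over all genes. The values were -4.31 for *Rgs9* (standard error 0.45, edgeR adjusted p = 1.6e-05), -4.04 for *Tac1* (0.73, edgeR adjusted p = 7.9e-04), -3.80 for *Adora2a* (0.54, edgeR adjusted p = 1.5e-04) and -3.72 for *Drd2* (0.75, edgeR adjusted p = 0.0016). *Rasd2* had -2.40 (0.23, edgeR adjusted p = 7.6e-06) and *Pde10a* -1.20 (0.32, edgeR adjusted p = 0.0075). *Ppp1r1b* with -0.53 (0.29, edgeR adjusted p = 0.14) and *Penk* with -0.19 (0.37, edgeR adjusted p = 0.68) did not pass the adjusted p-value, so that 6 of 8 genes were lower by it alone, against 31.3% of all genes. The standard errors were larger than in wild-type mice for all 8 genes.

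Without CTX461 the same 6 genes passed in A391T mice, and the log2 fold change was larger in size for all 8. *Ppp1r1b* then had -0.77 (0.15, edgeR adjusted p = 0.0024) and *Penk* -0.49 (0.18, edgeR adjusted p = 0.047), both past the adjusted p-value and under 2-fold. Without CBLM461, in which *Drd2* and *Tac1* were highest of their group, the log2 fold change was -4.78 for *Drd2* and -5.95 for *Tac1*. Without CBLM445, which stood apart, 6 of 8 genes again passed, and *Ppp1r1b* had -0.64 (edgeR adjusted p = 0.053). With the names of the RPKM table, which count CTX461 and CBLM461 as wild type, the same 6 genes passed. *Ppp1r1b* then had -0.57 (edgeR adjusted p = 0.0010), *Penk* -0.27 (edgeR adjusted p = 0.11), *Drd2* -5.005 and *Tac1* -4.97. With only the mice of matching names *Drd2* had -5.34 and *Tac1* -6.22. Whether the regional difference itself differed between genotypes was not tested, since that test would rest on the cortex libraries by which the genes were chosen.

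**Figure D4:**
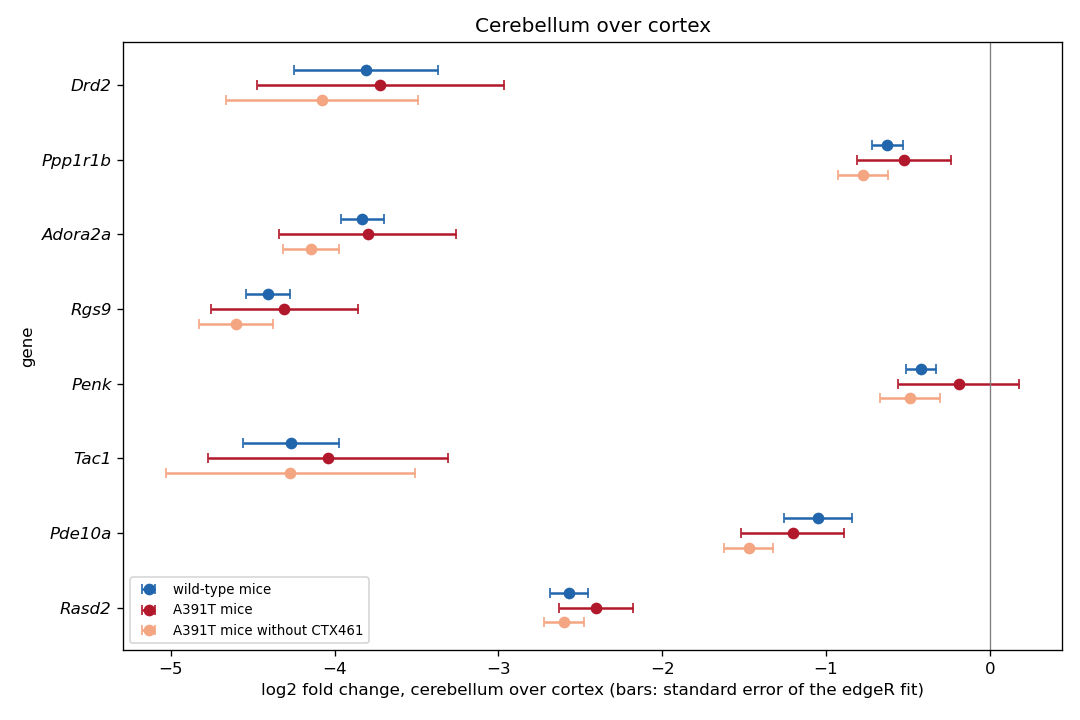
Log2 fold change of cerebellum over cortex (horizontal axis) for each of the 8 genes in wild-type mice, in A391T mice and in A391T mice without CTX461; points are edgeR estimates and bars their standard errors. *Drd2*, *Adora2a*, *Rgs9*, *Tac1* and *Rasd2* lie below -2 in all 3 fits, and *Ppp1r1b* and *Penk* between -1 and 0.

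Every cortex library lay above every cerebellum library for 4 of 8 genes, *Adora2a*, *Rgs9*, *Tac1* and *Rasd2*, against 25.3% of the 14289 genes. Without CTX461 this held for all of the 8 genes except *Penk*, against 25.8% of the 14289 genes. Of the 12 signalling genes, 10 were lower in cerebellum in wild-type and in A391T mice by the criteria above, and the 2 that were not, named after their values were seen, were *Gnal*, the G protein of striatal dopamine and adenosine receptors, with a log2 fold change of -0.30 in wild-type and -0.54 in A391T mice, and *Gnb5*, the partner protein of *Rgs9*, with -0.01 and 0.20. Of the markers tested, 9 of 13 in wild-type and 7 of 11 in A391T mice were lower in cerebellum, and 1 in each was higher, *Ebf1*, with 3.48 and 3.59. Of the tested genes of the direct pathway, 6 of 6 and 5 of 5 were lower, of those of the indirect pathway 4 of 6 and 4 of 6, of the peptide receptors 4 of 4 and 3 of 4, and of the cholinergic genes 2 of 2 and 1 of 1.

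Of the cortical excitatory markers, 8 of 8 genes were lower in cerebellum in wild-type and 7 of 8 in A391T mice, with a median log2 fold change of -3.12 and -2.99. Whether the 8 genes differ from these markers in that respect was not tested. Of the 7 cortical interneuron genes, 4 were lower and 1 was higher in each genotype, and none of the 6 oligodendrocyte genes was called in either.

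Between A391T and wild-type cerebellum none of the 8 genes passed an adjusted p-value of 0.05 in edgeR's quasi-likelihood test, and 0 of 15668 genes (0%) did, with 1340 genes (8.55%) at an unadjusted p-value under 0.05 and none of the 8 among these. DESeq2 called 30 genes, of which none was among the 8. The log2 fold change was largest for *Pde10a*, -0.32 (standard error 0.18, edgeR adjusted p = 0.53), whose level was 99.2 ± 23.6 CPM (SD, n = 4) in wild-type and 78.6 ± 15.7 CPM in A391T cerebellum. When 1 library was left out it was -0.45 to -0.18, the smallest without CBLM479, and its edgeR unadjusted p was 0.025 without CBLM447 and 0.029 without CBLM462, with adjusted p-values of 0.57 and 0.40. *Ppp1r1b* had a log2 fold change of 0.09 (0.12), *Tac1* 0.07 (0.84), *Rgs9* 0.05 (0.22), *Rasd2* 0.01 (0.14), *Penk* 0.01 (0.11), *Adora2a* -0.03 (0.15) and *Drd2* -0.06 (0.76). The 2 largest errors were those of *Drd2*, for which 1 library of each genotype lay far above the other 3, and of *Tac1*, for which 1 A391T library did. Without that library, CBLM461, *Tac1* had -1.86 (0.48, edgeR unadjusted p = 0.0040, adjusted p = 0.53). With the names of the RPKM table none of the 8 passed the adjusted p-value either, but *Drd2* had a log2 fold change of -1.73 (standard error 0.57, edgeR unadjusted p = 0.012, adjusted p = 0.55) and *Ppp1r1b* 0.25 (0.09, edgeR unadjusted p = 0.024, adjusted p = 0.55), where 7.82% of all genes had an unadjusted p-value under 0.05. Those names count CBLM461 and CBLM479, the libraries with the highest *Drd2* levels, both as wild type. With only the mice of matching names, 2 a group and without CBLM461, *Drd2* had -1.99 (0.88). In that fit *Tac1* at -2.12 and *Pde10a* at -0.63 had an unadjusted p-value under 0.05, as did 8.7% of all genes. Differences smaller than these errors were not detectable with 4 libraries a group. Differences well above them could be missed too, as that of *Tac1* without CBLM461 was.

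The cerebellum libraries with the highest *Drd2* levels also had the highest levels of the thalamus list. The 6 genes of that list summed to 265 CPM in CBLM461 and 231 CPM in CBLM479, and to 163 to 187 CPM in the other 6 libraries. Of the 6 genes, *Tcf7l2* (45.3 and 37.6 CPM, against 4.58 to 5.94 CPM) and *Slc17a6* (78.6 and 52.4 CPM, against 15.7 to 29.6 CPM) were higher in both, and *Prkcd*, *Rgs16*, *Lef1* and *Tnnt1* were not higher in both. Of the genes of other lists with at least 1 CPM on average in cerebellum, those with both CBLM461 and CBLM479 above the other 6 libraries were 4 of 9 of medium spiny neuron signalling, 0 of 6 of the other striatal markers, 2 of 5 of cortical interneurons, 1 of 6 of cortical excitatory neurons, 1 of 4 of hippocampus and 1 of 1 of the peptide receptors, *Oprd1*, and 0 of 6 each of choroid plexus, oligodendrocytes and cerebellum. The 4 signalling genes were *Adcy5* (102 and 102 CPM, against 77.5 to 94.9 CPM), *Pde1b* (57.8 and 52.7 CPM, against 41.3 to 49.2 CPM), *Ptpn5* (30.5 and 35.2 CPM, against 19.7 to 29.0 CPM) and *Rasgrp2* (26.9 and 28.3 CPM, against 14.6 to 20.5 CPM). Some genes of the lists are named after their values were seen. Below 1 CPM on average, *Pdyn*, a striatal marker, had 1.92 and 1.15 CPM against 0.159 to 0.714 CPM, *Tacr1* 1.47 and 0.959 CPM against 0.039 to 0.397 CPM, *Tacr3* 1.26 and 1.27 CPM against 0 to 0.793 CPM, and *Gpr6* 0.163 and 0.192 CPM against 0 to 0.116 CPM. *Sst*, the somatostatin gene of the cortical interneuron list, had 22.1 and 16.0 CPM against 2.35 to 5.39 CPM, and *Vip* of the same list, below 1 CPM on average, had 2.28 and 1.84 CPM against 0 to 0.168 CPM. *Foxp2* of the cortical excitatory list had 20.8 and 17.8 CPM against 9.20 to 12.6 CPM, while *Slc17a7*, a vesicular glutamate transporter gene of that list, had 603 and 661 CPM against 601 to 745 CPM. *Fibcd1* of the hippocampus list had 3.18 and 3.07 CPM against 0.547 to 0.991 CPM. Of the 8 genes, 3 were highest in this pair of libraries, *Drd2*, *Tac1* and *Rasd2*, as were 4.11% of 14079 genes with at least 1 CPM on average in cerebellum, the pair having been picked by its *Drd2* level. Of these genes 0.156% were at least 2-fold above the other 6 libraries, *Drd2*, *Sst*, *Fibcd1* and *Tcf7l2* among them. The midbrain dopamine neuron list summed to 58.0 CPM in CBLM461 and 31.5 CPM in CBLM479, the lowest of the 8, against 40.7 to 65.5 CPM in the other 6 libraries. *Slc6a3*, the dopamine transporter gene, was at 0 CPM in CBLM461 and 0.038 CPM in CBLM479. *Pitx3*, alone of that list, was higher in both, at 0.041 and 0.077 CPM against 0 to 0.035 CPM. Both genes were near 0 in all cerebellum libraries. *Drd1a* was at most 0.630 CPM in any cerebellum library. The part of tissue next to the cerebellum in the levels of *Drd2* and *Tac1* was not tested.

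In cortex the A391T difference, a description without a test, was small and depended on CTX461. The log2 fold change of A391T over wild type was -0.25 (standard error 0.34) for *Penk*, -0.20 (0.31) for *Pde10a*, -0.19 (0.25) for *Tac1*, -0.18 (0.43) for *Drd2*, -0.18 (0.18) for *Rasd2*, -0.09 (0.41) for *Adora2a*, -0.08 (0.32) for *Rgs9* and -0.04 (0.25) for *Ppp1r1b*, negative for 8 of 8 genes. Without CTX461 it was positive for 8 of 8 genes, from 0.01 for *Rasd2* to 0.26 for *Adora2a*. With mice named as in the RPKM table, which exchange 2 cortex libraries of each genotype and count the low one as wild type, it was 0.30 for *Adora2a*, 0.27 for *Rgs9* and 0.24 for *Drd2*, and -0.05 for *Tac1*, the only gene below 0. The direction of the A391T difference thus changed for 8 of 8 genes without CTX461 and for 7 of 8 with the 4 libraries exchanged.

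**Figure D5:**
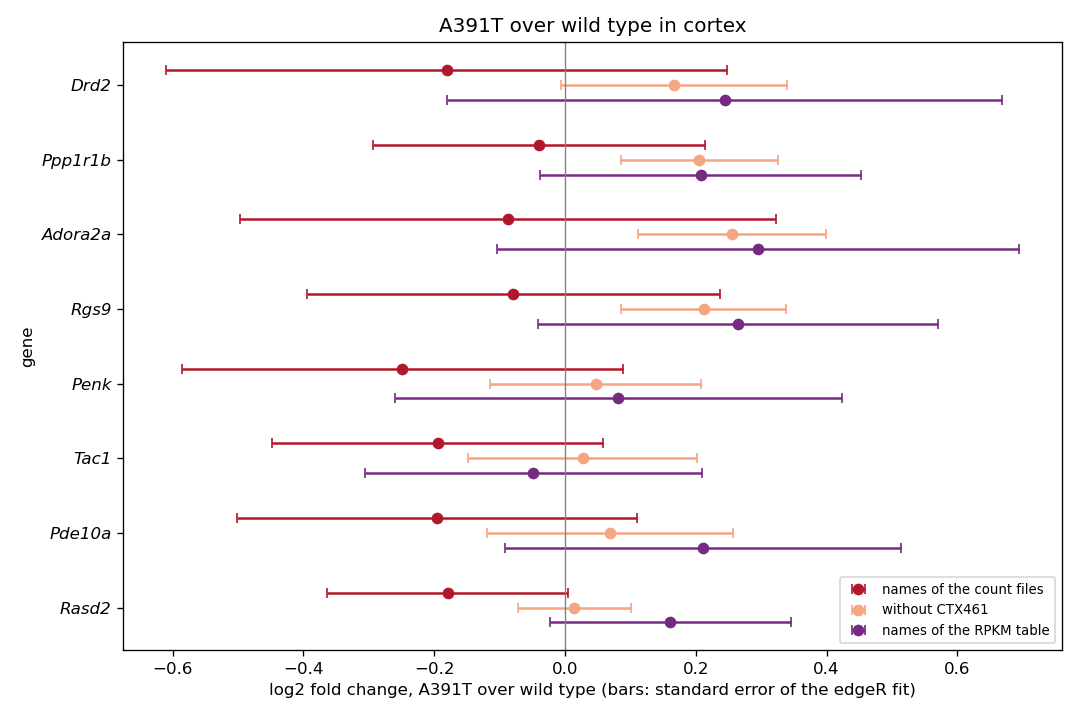
Log2 fold change of A391T over wild type in cortex (horizontal axis) for each of the 8 genes with the names of the count files, without CTX461 and with the names of the RPKM table; points are edgeR estimates and bars their standard errors. All 8 points lie below 0 with the names of the count files and all 8 above 0 without CTX461.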

How the data were processed

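The study's authors made polyA-selected directional libraries from total RNA and, per the submitters' processing notes, used STAR, HTSeq, edgeR and the mm9 build. The deposited counts are whole reads per Ensembl gene, 1 file per library, not normalized, and strand was not used. A table of RPKM values was deposited too, by the same authors, from which gene names and gene lengths were taken here, and 0 of its columns belong to no sample. Entries for reads on no gene (10.2% to 13.2%), ambiguous reads (2.20% to 2.75%) and reads not aligned uniquely (8.41% to 12.1%) were left out of totals and tests.

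Counts were tested with edgeR 4.0.16 (limma 3.58.1, R 4.3.3) using filterByExpr, TMM scaling and the quasi-likelihood test, p-values being adjusted by Benjamini-Hochberg over every gene tested, and the code was tested on simulated data. Regions were compared within each genotype, called at an adjusted p-value of 0.05 and 2-fold, and genotypes within cerebellum at an adjusted p-value of 0.05 alone. P-values measure the spread between 4 libraries a group, 1 per mouse. CPM uses TMM-scaled totals, and TPM was computed from counts and gene length. Correlations used log2 CPM with a prior count of 1, and Python 3.11.15. The alternatives were DESeq2 1.42.0, library totals or RLE size factors for scaling, no filter or a stricter one, a model of all 16 libraries, mouse as a block, the RPKM table's names and each library left out in turn. Both regions of a mouse share its number in the labels. Deviations of the 2 regions of 1 mouse from their group means correlated across genes from -0.14 to 0.19 over 8 mice, and those of different mice from -0.23 to 0.20.

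The 8 genes and all gene lists were chosen with earlier results of these data known. The 8 genes are named. The rule also allowed the 4 genes of each list with the highest cortex level, any gene of a list of up to 7 and the 10 genes of most similar pattern, and not every gene allowed is named. Others, and a choice among those allowed, were named after their values were seen. The values of 1 gene are not reported here. Where several entries share a name, the one with the most counts was used. Promoter sequences are those of RefSeq.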

Additional observations from a re-analysis of the deposited data

Results flagged for a closer look

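Of 32 groups of 4 libraries examined, the 8 genes in each of 4 groups, 5 held a library far from the other 3, and chance alone sets apart about 1 in 20 such groups. The groups share libraries, CBLM461 being set apart for *Drd2*, *Tac1* and *Rgs9*, so that this rate does not apply to their count. All 5 were in cerebellum. The rule divides the gap to the nearest library by the range of the group. It did not flag CTX461, the lowest cortex library for all 8 genes. *Drd2* had 6.73 CPM in CBLM461, where the other 3 A391T libraries had 0.805 to 1.81 CPM, and 6.91 CPM in CBLM479, where the other 3 had 1.03 to 1.63 CPM. *Tac1* had 6.32 CPM in CBLM461 and 0.420 to 0.631 CPM in the other 3, and *Rgs9* had 5.42 CPM there and 2.82 to 3.09 CPM in the other 3. *Adora2a* had 2.55 CPM in CBLM446, below the 3.32 to 3.42 CPM of the other 3. The 2 cerebellum libraries with high *Drd2* also had the highest summed level of the thalamus markers, 265 and 231 CPM, through 2 of its 6 genes, *Tcf7l2* and *Slc17a6*. Of the genes with at least 1 CPM on average in cerebellum, 4.11% were highest in both, and among the lists 4 of 9 of medium spiny neuron signalling, 0 of 6 of other striatal markers, 2 of 5 of cortical interneurons, 1 of 6 of cortical excitatory neurons, 1 of 4 of hippocampus, 1 of 1 of the peptide receptors and 0 of 6 each of choroid plexus and oligodendrocytes. Some genes below that level were highest in both as well, the striatal marker *Pdyn* and the interneuron gene *Vip* among them. The part of other tissue in these levels was not tested.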

How the results depend on the processing

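The names of 4 mice are not settled by the files, and 4 libraries a group limit what could be detected. Under the alternatives run, 5 or 6 of the 8 genes were called between regions in wild-type mice (8 by the adjusted p-value alone), 6 in A391T mice, and 0 between genotypes in cerebellum. *Pde10a* in wild-type mice was the gene whose call was lost, at a log2 fold change of -0.92 with library totals, -0.84 under the names of the RPKM table, -0.85 with only the mice of matching names, and -0.88 to -1.22 when 1 library was left out. Mouse as a replicate block left 6 genes called in each genotype, with *Pde10a* at -1.04 in wild-type mice, and the block with the table's names gave 5, with *Pde10a* at -0.71. The block changed no other call. Leaving out 1 library gave -0.49 to 0.058 for *Penk* between regions in A391T mice, and in the genotype difference of cerebellum -1.13 to 0.96 for *Drd2*, -0.042 to 0.14 for *Ppp1r1b*, -0.10 to 0.062 for *Adora2a*, -0.23 to 0.15 for *Rgs9*, -0.11 to 0.051 for *Penk*, -1.86 to 0.44 for *Tac1*, -0.45 to -0.18 for *Pde10a* and -0.12 to 0.12 for *Rasd2*. That difference also changed sign under the table's names, to -0.10 for *Rgs9*, -1.35 for *Tac1* and -0.20 for *Rasd2*, with only the mice of matching names, to -0.048, -2.12 and -0.19, and for *Penk* with library totals, to -0.0043. Without change of sign, that of *Drd2* moved from -0.06 to -1.73 under the table's names and -1.99 with only the mice of matching names, and that of *Ppp1r1b* from 0.09 to 0.25 and 0.32. The table's names count CBLM461 and CBLM479, the libraries with the highest *Drd2* levels, both as wild type. The mice of matching names include CBLM479 and not CBLM461. Beyond that the cause was not tested. In cortex the median A391T difference of the 8 genes was -0.18, and -0.32 to 0.12 when 1 library was left out, 0.21 under the table's names and -0.18 in a model of all 16 libraries, an alternative chosen after the data were seen. Over all genes, the adjusted p-value alone called 10875 in place of 3963 between regions in wild-type and 10056 in place of 3953 in A391T mice, and between genotypes in cerebellum 30 genes were called with DESeq2, 3 in the model of all 16 libraries and 1 without a filter, in place of 0. Library totals moved the median log2 fold change of all genes between regions to 0.14 and 0.16 and split the calls 1992 higher against 2029 lower in place of 1692 against 2271 in wild-type mice, and 1908 against 2127 in place of 1571 against 2382 in A391T mice.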
